A study of Mus musculus with 24 samples.

Results

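The kidneys of Nlrp3 knockout mice given glyoxylate were compared with those of knockout mice given saline, across every gene of the expression table. The comparison takes 12 of the 24 libraries of the study, 6 from each group, and 13020 of the 28450 features of the table were expressed highly enough to be tested. All mice were C57BL/6. The knockout is written NLPR3-/- in the labels, which describe neither the allele nor the sex or age of the animals. Gly groups received glyoxylate, which the labels call glyoxylate acid (Gly), into the peritoneum at 75 mg/kg per day in 200.0 µl from day 1 to day 7. Saline groups received saline on the same days, and kidneys were collected on day 7. Wild-type mice given saline (6 libraries) served as another reference, and wild-type mice given Gly (6 libraries) entered only the comparison of the genotypes' responses. Each library is a separate sample in the labels, and p-values here refer to the variation among those samples.

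Glyoxylate is converted to oxalate, which precipitates with calcium and gives crystals in kidney tubules. Crystals damage the epithelium and draw in leukocytes. NLRP3 is a cytosolic sensor that assembles an inflammasome, which activates caspase-1 and so the maturation of IL-1β and IL-18. The proximal tubule, the most abundant epithelium of the kidney, lives largely on fatty acid oxidation and makes glucose, and injured tubule cells are known to lower those functions, to switch on KIM-1 and NGAL and to release chemokines. The comparison shows how a kidney that lacks the sensor changes under glyoxylate.

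Values are FPKM (fragment counts normalised for transcript length and library size), which may be compared between genes because they are per length. Differences are on the log2(FPKM + 1) scale, which understates the change of weakly expressed genes. A gene is called when the adjusted p of limma's test is under 0.05. FPKM sums lay between 439749 and 539018 per library and the sequencing depth is unknown. The first principal component of the 12 knockout libraries separated the treatments and carried 48.3% of their variance. Nlrp3 itself ran from 0.119 to 0.144 FPKM (median 0.126) in Gly knockout and from 0 to 0.182 (median 0.0988) in saline knockout, with 0.0397 to 0.0886 in saline wild type, and library 4 was at 0 (exact permutation test of 6 against 6 knockout libraries, two-sided, p = 0.26, adjusted p = 0.26 over 4 tests). At levels this low the gene does not check the genotype labels. Mitochondrial transcripts took 23.9% ± 1.10 of all FPKM in Gly knockout and 30.6% ± 1.46 in saline knockout (SD, n = 6 each; exact permutation p = 0.0022, the smallest possible, adjusted p = 0.0043 over 4 tests). Ribosomal protein transcripts took 4.33% ± 0.474 and 2.93% ± 0.219 (SD, n = 6 each; exact permutation p = 0.0022, adjusted p = 0.0043).

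The saline knockout libraries were not alike, and this touches every value below. The Y-linked helicase gene Ddx3y ran from 8.74 to 12.9 FPKM (median 10.97) in Gly knockout and from 0 to 9.33 (median 0.0131) in saline knockout. Libraries 1, 2, 3, 5 and 6 of saline knockout held at most 0.0218 FPKM, while saline knockout library 4, called library 4 from here on, held 9.33. All Gly knockout and all saline wild-type libraries expressed the gene, the latter at 8.86 to 10.8 FPKM. Where these 5 libraries carry a difference, the treatment and whatever goes with the absence of Y-linked transcripts cannot be told apart. Each named gene is therefore also given in library 4 and in saline wild type.

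Of 13020 tested features, 3837 differed between Gly and saline knockout (29.5%), 3092 of them higher under Gly (23.7%) and 745 lower (5.72%). Differences of at least 1 log2 unit were found for 437 features, 351 higher and 86 lower. The median over all features was 0.12, so the changes below start from a small common shift. All 6 Gly knockout libraries lay above all 6 saline knockout libraries for 2015 features (15.5%) and below them for 273 (2.1%). Against saline wild type, 5068 features were higher in Gly knockout (38.9%) and 875 lower (6.72%), with a median of 0.20. With library 4 as the only saline knockout library and its spread taken from the other groups, 741 features were called (5.69%), 601 higher (4.62%) and 140 lower (1.08%). That fit has 1 library in the saline knockout arm, so a call lost in it does not show a smaller change, and the median change is given beside the counts of most lists. Scaling the libraries by median ratios removed the common shift and gave 1608 higher and 1549 lower features, so the balance of rises and falls depends on the scaling.

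Among 2582 called genes that carried an established symbol and averaged at least 5 FPKM in the higher group, 2069 changed the same way and by at least 0.5 times as much against both library 4 and saline wild type. These were 1774 of 2071 rises (85.7%) and 295 of 511 falls (57.7%). A further 413 genes moved in the opposite direction against library 4 or by under 0.5 times as much, and 115 of those had the opposite sign. The largest rises and falls below were chosen to keep their sign and at least 0.5 times their size against both references. That most of these rises stood clear of every saline library, with few exceptions named there, follows in part from this choice. Genes that failed it against library 4 are described apart, among them the large called rises of Slc7a13, Acsm3 and Serpina1a.

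**Figure D1:**
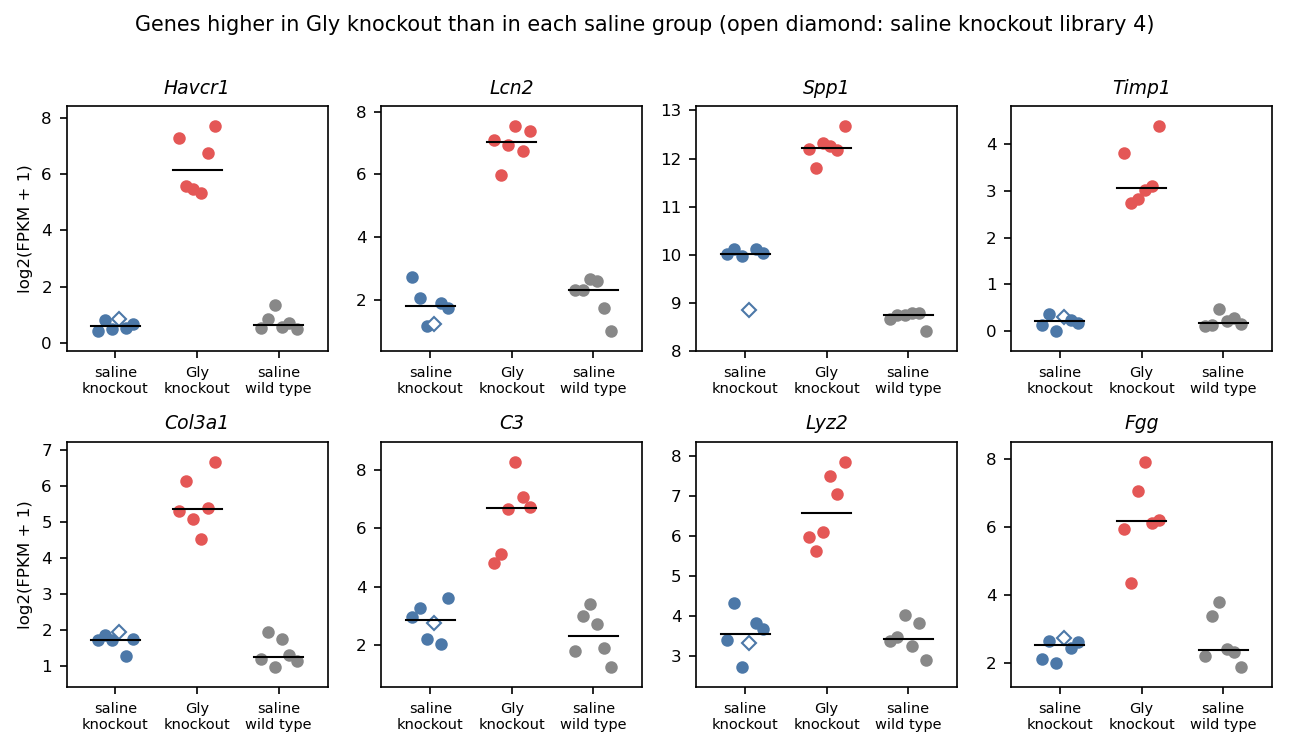
Expression of 8 genes on the log2(FPKM + 1) scale in each of 6 saline knockout, 6 Gly knockout and 6 saline wild-type libraries. Points are libraries, black bars are medians and the open diamond is saline knockout library 4. In each panel all 6 Gly knockout libraries lie above all libraries of both saline groups.

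The tubule injury genes Havcr1 and Lcn2 rose 181-fold and 47.2-fold between group means. Havcr1, which encodes KIM-1, a phosphatidylserine receptor of damaged proximal tubules, ran from 39.1 to 207 FPKM (median 76.7) in Gly knockout and from 0.336 to 0.801 (median 0.523) in saline knockout. Library 4 held 0.801 FPKM and saline wild type 0.418 to 1.55, so no saline library of either genotype came near the Gly range. The change of Havcr1 was far larger than the spread of either group (log2 change 5.73 ± 0.29 SE, adjusted p = 3.57e-12). Lcn2, encoding the iron-carrier binding protein NGAL, ran from 61.4 to 183 FPKM (median 129) in Gly knockout and from 1.24 to 5.61 (median 2.53) in saline knockout. Again the groups did not overlap, with library 4 at 1.35 FPKM and saline wild type at 1.02 to 5.3997 (log2 change 5.14 ± 0.28 SE, adjusted p = 9.17e-12). Spp1, encoding osteopontin, a secreted phosphoprotein that binds calcium crystals, ran from 3590.3 to 6504 FPKM (median 4799) in Gly knockout and from 461 to 1118 (median 1039) in saline knockout. It was the most abundant transcript of the injury list, and its baseline split: library 4 held 461 FPKM and saline wild type 342 to 447, while the other 5 saline knockout libraries held 1014 to 1118. The log2 change of Spp1 was accordingly 2.38 ± 0.17 (SE, adjusted p = 9.6e-10) against all 6 saline knockout libraries and 3.39 against library 4. Of 24 tested injury genes, 22 rose and none fell (median log2 change 1.19, against 0.12 over all features), and 20 stood above saline knockout in every library. Compared with saline wild type 22 were higher (median 1.55), and with library 4 alone 20 (median 1.54).

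Some further large rises were outside the injury list. Serpina10, a serpin that inhibits coagulation factors, had medians of 9.09 FPKM under Gly and 0.617 under saline in knockout, beside 0.174 in library 4 and 0.209 in saline wild type (log2 change 2.71 ± 0.17 SE, adjusted p = 1.25e-10). Aoc1, the diamine oxidase that degrades histamine and putrescine, had a Gly knockout median of 11.8 FPKM and a saline knockout median of 1.65, with library 4 at 0.988 and the saline wild-type median at 1.33 (log2 change 2.34 ± 0.23 SE, adjusted p = 6.64e-08). Both lay above every saline library of both genotypes. Ugt1a10, a UDP-glucuronosyltransferase whose reads can be split among near-identical family members, had a median of 30.6 FPKM in Gly knockout against 3.73 in saline knockout, 1.28 in library 4 and 1.01 in saline wild type (log2 change 2.82 ± 0.51 SE, adjusted p = 0.0002), and its Gly range of 4.25 to 79.96 FPKM overlapped both saline groups.

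Among growth factors of the EGF family, which drive tubule repair, Nrg1 and Hbegf rose and Egf fell. Nrg1, encoding neuregulin-1, had medians of 8.71 FPKM under Gly and 2.07 under saline in knockout, beside 1.54 in library 4 and 1.99 in saline wild type (log2 change 1.75 ± 0.15 SE, adjusted p = 1.62e-08). Hbegf, the heparin-binding member, had a Gly knockout median of 9.65 FPKM and a saline knockout median of 4.16, with library 4 at 6.64 and the saline wild-type median at 5.98 (log2 change 0.92 ± 0.12 SE, adjusted p = 3.36e-06). Library 4 was the highest saline knockout library for Hbegf, and the change against it was 0.41. Egf itself, made by the thick ascending limb and the distal tubule, ran from 70.6 to 248 FPKM (median 180.3) in Gly knockout and from 408 to 704 (median 542) in saline knockout. No Gly library reached the lowest saline value, which was that of library 4 (408 FPKM), and saline wild type lay at 364 to 479 (log2 change -1.94 ± 0.27 SE, adjusted p = 7.17e-06). The call of Egf was lost with library 4 alone (adjusted p = 0.10), with a change of -1.51. In all, 3 of 9 tested members rose and 1 fell, shares near those of all features (23.7% and 5.72%), with a median of 0.16 against 0.12.

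Of 27 chemokine and cytokine genes 21 could be tested. Of these 20 rose (median 1.06), 18 of them above saline knockout in every library. The limit for testing was 1 FPKM in 6 or more libraries. A gene near 0 under saline, such as Cxcl2 below, passed it only through Gly libraries, so the share of rises was partly set by the limit. Cxcl1, a neutrophil attractant, ran from 2.81 to 10.5 FPKM (median 6.34) in Gly knockout and from 0.0989 to 0.943 (median 0.56996) in saline knockout. The highest saline library was library 4 (0.943 FPKM), and saline wild type held 0.154 to 0.465 (log2 change 2.18 ± 0.20 SE, adjusted p = 2.11e-08). Cxcl2, its relative, was listed at 0 in all 6 saline knockout libraries and at 0 to 0.0506 FPKM in saline wild type, but at 0.776 to 1.51 (median 1.05) in Gly knockout (log2 change 1.04 ± 0.10 SE, adjusted p = 6.92e-08). Csf1, the growth factor of macrophages, had a median of 7.04 FPKM in Gly knockout against 1.84 in saline knockout, 1.51 in library 4 and 1.37 in saline wild type (log2 change 1.45 ± 0.14 SE, adjusted p = 6.92e-08). Cxcl10, an interferon-induced attractant of T cells, had medians of 9.69 FPKM under Gly and 2.29 under saline in knockout, beside 2.47 in library 4 and 1.78 in saline wild type (log2 change 1.599 ± 0.15 SE, adjusted p = 4.87e-08). The Gly libraries lay above every saline library for each of the 4. Against saline wild type 20 members were higher, and with library 4 alone 12 (median 1.12).

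NF-κB subunits and feedback genes rose for 12 of 15 (median 0.67), and against saline wild type for 15. Bcl3, a nuclear IκB protein, had a Gly knockout median of 8.51 FPKM and a saline knockout median of 1.604, with library 4 at 1.47 and the saline wild-type median at 1.58 (log2 change 1.82 ± 0.16 SE, adjusted p = 1.87e-08). Icam1, the adhesion molecule that leukocytes bind, had a median of 16.7 FPKM in Gly knockout against 4.96 in saline knockout, 5.07 in library 4 and 4.98 in saline wild type (log2 change 1.46 ± 0.13 SE, adjusted p = 3.21e-08). Neither overlapped a saline group.

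The inflammasome and IL-1 genes, the pathway of the deleted sensor, moved less. Of 19 genes 16 could be tested. Of these 6 rose and none fell (median 0.22), beside 23.7% of all features that rose. A gene near 0 under saline, such as Il1rn below, could not pass the limit for testing without Gly libraries. The count of rises was thus partly set by the limit. Il1rn, encoding the IL-1 receptor antagonist, had medians of 1.32 FPKM under Gly and 0.036999 under saline in knockout, beside 0.0461 in library 4 and 0.0624 in saline wild type (log2 change 1.23 ± 0.17 SE, adjusted p = 5.22e-06), with no overlap between the groups. Casp4, the caspase-11 gene of the non-canonical inflammasome, had a Gly knockout median of 1.73 FPKM and a saline knockout median of 0.547, with library 4 at 0.443 and the saline wild-type median at 0.394 (log2 change 0.71 ± 0.15 SE, adjusted p = 0.00108) and overlapped saline knockout. Against library 4 alone 1 member was called.

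Macrophage and monocyte markers rose for 25 of 26 (median 1.33), and 23 stood above saline knockout in every library. Their summed level was 269.99 to 670.4 FPKM in Gly knockout, 74.5 to 138 in saline knockout (85.9 in library 4) and 64.2 to 105 in saline wild type. In whole kidney, more cells of a type and more RNA per cell cannot be told apart, here or for any other marker list. Lyz2, the lysozyme of myeloid cells, ran from 47.8 to 229 FPKM (median 99.99) in Gly knockout and from 5.58 to 18.9 (median 10.6) in saline knockout. Library 4 held 9.04 FPKM and saline wild type 6.47 to 15.3, and the groups did not overlap (log2 change 3.14 ± 0.34 SE, adjusted p = 2.51e-07). C1qc, a subunit of the C1q complement complex made by tissue macrophages, had a median of 18.2 FPKM in Gly knockout against 4.68 in saline knockout, 4.79 in library 4 and 3.86 in saline wild type (log2 change 1.77 ± 0.19 SE, adjusted p = 2.59e-07). Lgals3, encoding galectin-3, a lectin of macrophages that injured tubules also make, had medians of 77.5 FPKM under Gly and 18.5 under saline in knockout, beside 15.05 in library 4 and 15.05 in saline wild type (log2 change 1.997 ± 0.13 SE, adjusted p = 1.63e-10). All 6 Gly libraries were above both saline groups for both genes. Against saline wild type 25 members were higher, and with library 4 alone 15 (median 1.47).

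Other leukocyte lists were mostly below the limit for testing. Only 2 of 11 neutrophil markers could be tested and both rose. A marker under 1 FPKM in the saline libraries reaches the limit only through Gly libraries, so such a count can be partly set by the limit. The summed neutrophil level was 2.53 to 16.9 FPKM in Gly knockout and 0.477 to 1.49 in saline knockout, without overlap, but saline wild type at 0.530 to 3.37 FPKM overlapped the Gly range. Neither of the 2 tested markers stood above both saline groups in every library, and neither was called with library 4 alone (median change 1.44). Of 16 lymphocyte markers 1 could be tested, and their sum overlapped (1.45 to 6.52 against 2.66 to 7.11 FPKM). MHC class II genes rose for 6 of 8 (median 0.82), and for 8 against saline wild type. The peptide-loading gene H2-DMb2 had a Gly knockout median of 2.56 FPKM and a saline knockout median of 0.687, with library 4 at 0.764 and the saline wild-type median at 0.57000 (log2 change 1.13 ± 0.15 SE, adjusted p = 5.62e-06). Only 1 member was called with library 4 alone (median 0.93), and H2-DMb2 was not (adjusted p = 0.052).

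Against all 6 saline knockout libraries, interferon response genes did not move as a block. Of 27 tested, 7 rose and 1 fell (median 0.29), a share of rises close to the 23.7% of all features. The count of rises was 2 without saline knockout library 3 or 4 or Gly knockout library 1 or 6, 3 without Gly knockout library 3 and 4 without saline knockout library 1 or 5 or Gly knockout library 2. Relative to saline wild type 21 were higher (median 0.64), and the median against library 4 was 0.58. The mean log2(FPKM + 1) over the list was 2.35 to 2.88 in Gly knockout and 2.08 in library 4. In the other 5 saline knockout libraries it was 2.23 to 2.82, so the small change against all 6 depends on them. Ifit3, an antiviral effector, had a median of 27.5 FPKM in Gly knockout against 12.5 in saline knockout, 8.405 in library 4 and 7.596 in saline wild type (log2 change 1.11 ± 0.14 SE, adjusted p = 2.13e-06), above both saline groups in every library. Irf1, a transcription factor of the response, had medians of 8.28 FPKM under Gly and 4.58 under saline in knockout, beside 4.59 in library 4 and 3.61 in saline wild type (log2 change 0.75 ± 0.14 SE, adjusted p = 0.000198). The member that fell was Gbp3, a guanylate-binding protein, which ran from 2.61 to 7.67 FPKM (median 4.59) in Gly knockout and from 1.999 to 15.9 (median 13.7) in saline knockout. Library 4 held 1.999 FPKM and saline wild type 1.46 to 1.798, both below the Gly range, while the other 5 saline knockout libraries held 12.7 to 15.9. The change of Gbp3 was -1.02 ± 0.29 SE (adjusted p = 0.0105) against all 6 and 0.92 against library 4.

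Complement and acute phase genes, which the liver makes in bulk and the injured kidney makes locally, rose for 14 of 20 and fell for 1 (median 1.601). C3, the central complement protein, ran from 26.9 to 308 FPKM (median 103) in Gly knockout and from 3.07 to 11.1 (median 6.27) in saline knockout. Library 4 held 5.77 FPKM and saline wild type 1.37 to 9.599, so the groups stood apart although the Gly libraries spread widely (log2 change 3.64 ± 0.45 SE, adjusted p = 1.83e-06). Cfi, the protease that inactivates C3b, had a Gly knockout median of 19.3 FPKM and a saline knockout median of 4.91, with library 4 at 4.11 and the saline wild-type median at 2.99 (log2 change 1.75 ± 0.18 SE, adjusted p = 1.07e-07). Serpina3n, an acute phase serpin, had a median of 6.46 FPKM in Gly knockout against 0.395 in saline knockout, 0.277 in library 4 and 0.591 in saline wild type (log2 change 2.30 ± 0.24 SE, adjusted p = 1.87e-07). The exception was C8a, encoding a chain of the membrane attack complex, which ran from 0.615 to 3.24 FPKM (median 2.09) in Gly knockout and from 6.26 to 21.6 (median 16.9) in saline knockout. Library 4 held the lowest saline knockout value (6.26 FPKM) and saline wild type 4.77 to 8.01, all above the Gly range (log2 change -2.45 ± 0.23 SE, adjusted p = 3.78e-08, -1.36 against library 4).

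The 3 chains of fibrinogen, the clotting protein, are encoded side by side and rose together. Fgg was among the largest rises, and Fga and Fgb were added after their values were seen. Fgg ran from 19.3 to 239 FPKM (median 71.04) in Gly knockout and from 2.98 to 5.65 (median 4.77) in saline knockout. Its Gly libraries cleared both library 4 (5.65 FPKM) and saline wild type (2.71 to 12.8; log2 change 3.85 ± 0.42 SE, adjusted p = 2.79e-07). Fga ran from 17.7 to 165 FPKM (median 59.1) in Gly knockout and from 11.1 to 14.3 (median 12.1) in saline knockout, with 14.3 in library 4 and 9.55 to 20.4 in saline wild type (log2 change 2.24 ± 0.34 SE, adjusted p = 1.9e-05). Fgb ran from 1.71 to 17.7 FPKM (median 8.39) in Gly knockout and from 0.4299 to 2.15 (median 1.43) in saline knockout, with 1.18 in library 4 and 0.141 to 4.97 in saline wild type (log2 change 1.88 ± 0.44 SE, adjusted p = 0.00215). The Gly range of Fgb overlapped both saline groups, and that of Fga overlapped saline wild type. With library 4 alone Fgg kept its call (adjusted p = 0.0195), while Fga and Fgb did not (adjusted p = 0.0896 and 0.20).

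The promoters of the 3 chains are shown because the chains are classic targets of IL-6 signalling through STAT3. Each stretch runs from 250 bases before to 50 after the annotated start, from RefSeq on GRCm38.p6, which is not one of the builds named for the expression data. Both strands were searched for CTGGGAA, the core of the type II IL-6 response element, and for TTCNNNGAA, the palindrome that STAT dimers bind. Matches stand in capitals. Fga lies at chr3:83025903-83026202 on the plus strand, Fgb at chr3:83049814-83050113 on the minus strand and Fgg at chr3:83007474-83007773 on the plus strand.
Fga: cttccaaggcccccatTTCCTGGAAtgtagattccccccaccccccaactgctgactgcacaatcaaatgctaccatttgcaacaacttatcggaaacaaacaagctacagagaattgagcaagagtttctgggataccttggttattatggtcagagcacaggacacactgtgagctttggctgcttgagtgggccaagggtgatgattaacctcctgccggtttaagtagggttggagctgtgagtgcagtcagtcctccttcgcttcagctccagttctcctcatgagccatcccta
Fgb: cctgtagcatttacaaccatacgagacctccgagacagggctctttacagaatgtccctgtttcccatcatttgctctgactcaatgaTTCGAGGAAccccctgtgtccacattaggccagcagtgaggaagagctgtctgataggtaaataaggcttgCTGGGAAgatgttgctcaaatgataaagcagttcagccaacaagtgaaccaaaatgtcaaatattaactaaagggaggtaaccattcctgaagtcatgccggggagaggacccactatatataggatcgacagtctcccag
Fgg: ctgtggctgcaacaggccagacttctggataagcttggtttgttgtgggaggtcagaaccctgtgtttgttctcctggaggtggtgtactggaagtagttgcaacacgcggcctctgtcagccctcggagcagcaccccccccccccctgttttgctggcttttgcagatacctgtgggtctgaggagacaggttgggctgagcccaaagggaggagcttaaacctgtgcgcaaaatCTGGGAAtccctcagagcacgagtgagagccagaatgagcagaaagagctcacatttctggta
TTCNNNGAA was found in Fga, starting at position -234 from the start site, and in Fgb at -162. CTGGGAA was found in Fgb at -91 and in Fgg at -13. Of 32851 promoters of this length in the same table, 11.1% held CTGGGAA, 8.30% held TTCNNNGAA and 17.5% held either. A match describes letters and is not evidence of a bound site.

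Matrix and fibroblast genes rose for 35 of 36 (median 1.31), 31 of them above saline knockout in every library. Col3a1, a fibrillar collagen of interstitial fibrosis, ran from 22.004 to 100.4 FPKM (median 39.7) in Gly knockout and from 1.397 to 2.85 (median 2.32) in saline knockout. Library 4 was the highest saline knockout library (2.85 FPKM) and saline wild type held 0.9604 to 2.84, both far below the Gly range (log2 change 3.82 ± 0.28 SE, adjusted p = 1.14e-09). Col1a1, its usual partner, had medians of 19.2 FPKM under Gly and 1.78 under saline in knockout, beside 2.34 in library 4 and 1.29 in saline wild type (log2 change 3.07 ± 0.26 SE, adjusted p = 1.02e-08). Timp1, an inhibitor of matrix metalloproteinases, ran from 5.68 to 19.8 FPKM (median 7.33) in Gly knockout and from 0 to 0.288 (median 0.155) in saline knockout. It was close to 0 in every saline library, library 4 included (0.2403 FPKM; saline wild type 0.0763 to 0.3897; log2 change 3.11 ± 0.20 SE, adjusted p = 1.25e-10). Tgfbi, a matrix protein induced by TGF-β, had a Gly knockout median of 10.7 FPKM and a saline knockout median of 3.12, with library 4 at 3.24 and the saline wild-type median at 2.32 (log2 change 1.49 ± 0.12 SE, adjusted p = 3.49e-09). Against saline wild type all 36 were higher, and with library 4 alone 22 (median 1.36). One collagen gene outside the list fell: Col27a1, a fibrillar collagen of cartilage, had a median of 3.41 FPKM in Gly knockout against 14.7 in saline knockout, 13.5 in library 4 and 12.5 in saline wild type (log2 change -1.85 ± 0.16 SE, adjusted p = 9.72e-09), below both saline groups in every library.

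Cell cycle genes rose for 26 of 28 (median 1.01), with 24 above saline knockout in every library and all 28 higher than in saline wild type. Rrm2, a subunit of ribonucleotide reductase, had medians of 6.85 FPKM under Gly and 1.88 under saline in knockout, beside 2.87 in library 4 and 1.67 in saline wild type (log2 change 1.49 ± 0.18 SE, adjusted p = 1.46e-06). Ccna2, encoding cyclin A2, had a Gly knockout median of 4.34 FPKM and a saline knockout median of 0.416, with library 4 at 0.972 and the saline wild-type median at 0.474 (log2 change 1.71 ± 0.19 SE, adjusted p = 5.18e-07). Library 4 held the highest saline knockout value of both genes, though still below every Gly library. Only 1 member passed with library 4 alone, and the median change against it was 0.84.

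Stress responses were uneven. Of 22 genes of the unfolded protein and integrated stress responses, 16 rose and 1 fell (median 0.49). Under median-ratio scaling 10 rose and 4 fell. Atf3, a stress-induced transcription factor, had a median of 3.39 FPKM in Gly knockout against 0.437 in saline knockout, 0.3301 in library 4 and 0.388 in saline wild type (log2 change 1.57 ± 0.15 SE, adjusted p = 8.39e-08). Xbp1, the effector of the IRE1 arm, had medians of 70.6 FPKM under Gly and 39.9 under saline in knockout, beside 34.2 in library 4 and 41.9 in saline wild type (log2 change 0.79 ± 0.11 SE, adjusted p = 8.78e-06). Shmt2, a mitochondrial serine hydroxymethyltransferase that ATF4 is known to induce, was the member that fell, with a Gly knockout median of 48.1 FPKM and a saline knockout median of 67.4, with library 4 at 87.5 and the saline wild-type median at 84.9 (log2 change -0.53 ± 0.11 SE, adjusted p = 0.000544). Among other lists, 10 of 14 immediate early genes rose (median 0.71), as did 8 of 15 p53 targets (median 0.34), 5 of 14 Nrf2 targets (median 0.19) and 5 of 12 heat shock genes (median 0.23), against 23.7% of all features (median 0.12). The Nrf2 and heat shock shares lay nearest to that background. Under median-ratio scaling 8 immediate early genes, 5 p53 targets, 3 Nrf2 targets and 2 heat shock genes rose. With library 4 alone 3, 3, 0 and 1 were called higher in that order, with medians of 0.79, 0.41, 0.25 and 0.31. The heat shock count was 3 without saline knockout library 5 or Gly knockout library 1, 2 or 6.

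**Figure D2:**
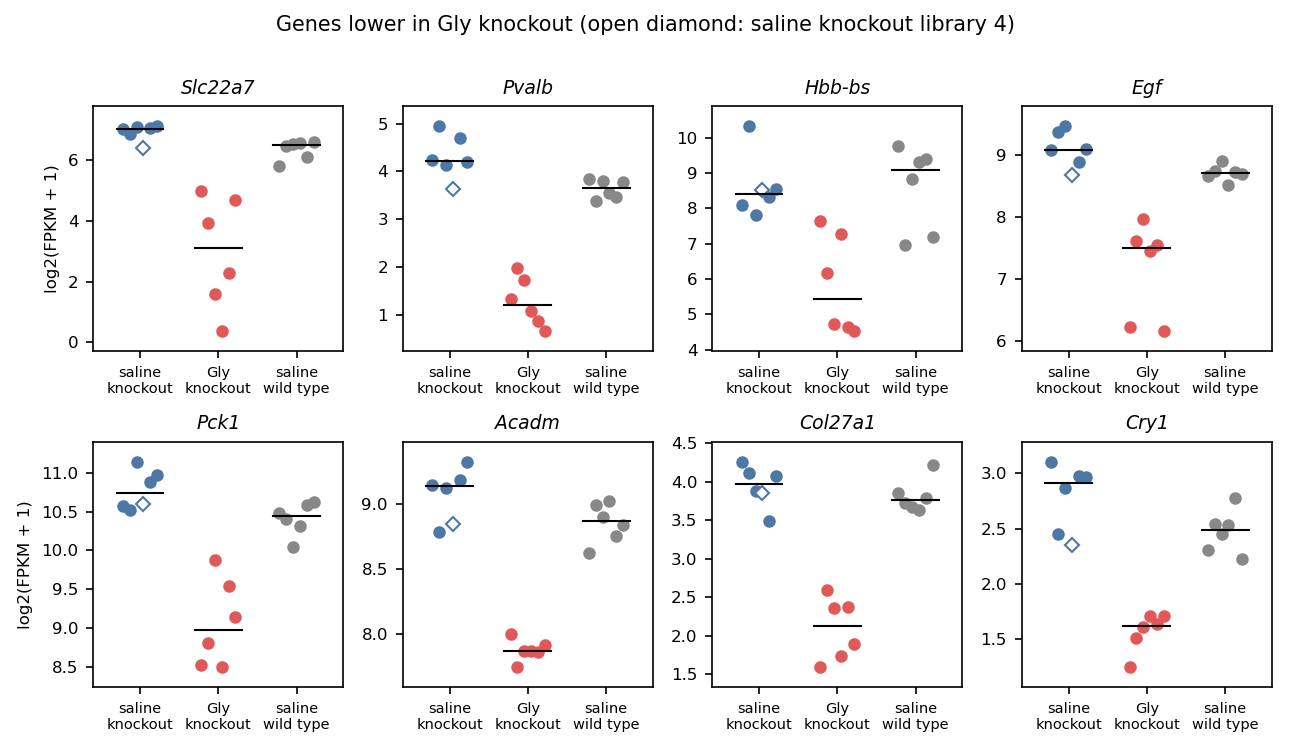
Expression of 8 genes that were lower in Gly than in saline knockout, on the log2(FPKM + 1) scale, with libraries as points, medians as black bars and saline knockout library 4 as the open diamond. In each panel the 6 Gly knockout libraries lie below the 6 saline knockout libraries. The hemoglobin gene Hbb-bs overlaps saline wild type, whose lowest library held 123 FPKM.

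Many genes of fatty acid oxidation and of glucose production fell. Of 31 fatty acid oxidation genes 20 fell and none rose (median -0.36), against 5.72% of all features. Acadm, the medium-chain acyl-CoA dehydrogenase, ran from 213 to 254 FPKM (median 232) in Gly knockout and from 439.97 to 639.9 (median 562) in saline knockout. Library 4 held 459 FPKM and saline wild type 393 to 519, all above the Gly range (log2 change -1.20 ± 0.10 SE, adjusted p = 5.71e-09). Cpt2, the inner-membrane carnitine palmitoyltransferase, had a median of 48.7 FPKM in Gly knockout against 80.5 in saline knockout, 82.4 in library 4 and 92.8 in saline wild type (log2 change -0.65 ± 0.081 SE, adjusted p = 1.83e-06). Relative to saline wild type 18 members were lower and 1 higher, and with library 4 alone 3 were called lower, with a median change of -0.36 as against all 6. The mitochondrial share of FPKM was lower in the same Gly libraries, as given above, and its part in these falls was not tested.

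Genes of gluconeogenesis and fructose use fell for 9 of 10 (median -0.52). Pck1, the rate-limiting carboxykinase, ran from 361 to 939.98 FPKM (median 504) in Gly knockout and from 1469 to 2251 (median 1716) in saline knockout. The groups did not overlap, and library 4 (1548 FPKM) and saline wild type (1057 to 1578) lay above the Gly range too (log2 change -1.72 ± 0.22 SE, adjusted p = 3.1e-06). G6pc, the glucose-6-phosphatase of the final step, had medians of 126 FPKM under Gly and 301 under saline in knockout, beside 318 in library 4 and 246 in saline wild type (log2 change -1.26 ± 0.19 SE, adjusted p = 2.35e-05). Fbp1, fructose bisphosphatase, had a Gly knockout median of 439.5 FPKM and a saline knockout median of 621, with library 4 at 706 and the saline wild-type median at 586 (log2 change -0.51 ± 0.09 SE, adjusted p = 0.000182). Each of the 3 kept its call with library 4 alone (adjusted p 0.0488 for Pck1, 0.041 for G6pc and 0.0204 for Fbp1).

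Proximal tubule markers fell in part. Of 29 tested, 8 fell, against 5.72% of all features, and 5 rose, a share below the 23.7% of all features (median -0.19). Slc22a7, the organic anion transporter OAT2, ran from 0.298 to 30.1 FPKM (median 9.08) in Gly knockout and from 82.5 to 135 (median 129) in saline knockout. Library 4 held 82.5 FPKM and saline wild type 54.9 to 94.96, above every Gly library, yet the Gly libraries themselves spanned a wide range (log2 change -3.94 ± 0.52 SE, adjusted p = 3.64e-06). Its call was lost with library 4 alone (adjusted p = 0.066), with a change of -3.42. Slc22a13, the urate and nicotinate transporter OAT10, had a median of 27.7 FPKM in Gly knockout against 69.9 in saline knockout, 42.8 in library 4 and 42.8 in saline wild type (log2 change -1.15 ± 0.15 SE, adjusted p = 3.99e-06). Here library 4 and saline wild type stood below the other saline knockout libraries, at 57.4 to 77.4 FPKM, and the change against library 4 was -0.58.

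Against these falls, Slc13a1, the sodium sulfate cotransporter, had medians of 243 FPKM under Gly and 127 under saline in knockout, beside 113 in library 4 and 119 in saline wild type (log2 change 0.80 ± 0.15 SE, adjusted p = 0.00031). Slc7a7, a subunit of the basolateral dibasic amino acid exchanger, had a Gly knockout median of 96.8 FPKM and a saline knockout median of 69.6, with library 4 at 74.2 and the saline wild-type median at 59.6 (log2 change 0.51 ± 0.13 SE, adjusted p = 0.00593). Both overlapped saline knockout and lay above saline wild type in every library. Smaller rises were those of the water channel gene Aqp1 (439.7 against 332 FPKM, 353 in library 4 and 349 in saline wild type; log2 change 0.46 ± 0.15 SE, adjusted p = 0.0288), the glucose transporter gene Slc2a2 (34.5 against 27.7 FPKM, 27.4 in library 4 and 24.1 in saline wild type; log2 change 0.28 ± 0.09 SE, adjusted p = 0.0216) and the transcription factor gene Hnf4a (175 against 152 FPKM, 163 in library 4 and 155 in saline wild type; log2 change 0.28 ± 0.09 SE, adjusted p = 0.0237). These 3 calls were fragile: Aqp1 lost its call without saline knockout library 2 or 6 or Gly knockout library 3, 4 or 5 (adjusted p 0.0509 to 0.0805), Slc2a2 without saline knockout library 5 (adjusted p = 0.0573) and Hnf4a without saline knockout library 2 or 5 or Gly knockout library 5 (adjusted p 0.0552 to 0.0647). The count of rises was 3 without saline knockout library 2 or 5 or Gly knockout library 5. Under median-ratio scaling 15 markers fell and 1 rose, and with library 4 alone 1 was called higher and none lower (median -0.37).

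Further large falls were spread over transporters and lipid proteins. Slc22a19, an organic anion transporter of the proximal tubule, had a median of 19.7 FPKM in Gly knockout against 105 in saline knockout, 41.02 in library 4 and 46.6 in saline wild type (log2 change -2.25 ± 0.30 SE, adjusted p = 4.05e-06). Slc9a8, a sodium-proton exchanger, had medians of 12.3 FPKM under Gly and 46.2 under saline in knockout, beside 30.3 in library 4 and 27.7 in saline wild type (log2 change -1.75 ± 0.19 SE, adjusted p = 2.46e-07). Slc25a25, a mitochondrial ATP-magnesium carrier, had a Gly knockout median of 18.4 FPKM and a saline knockout median of 56.4, with library 4 at 47.2 and the saline wild-type median at 65.4 (log2 change -1.83 ± 0.29 SE, adjusted p = 3.12e-05). The Gly range lay below all saline knockout libraries for the 3, and Slc22a19 overlapped saline wild type. Mfsd2a, a transporter of lysophosphatidylcholine, had a median of 1.91 FPKM in Gly knockout against 14.5 in saline knockout, 17.02 in library 4 and 7.82 in saline wild type (log2 change -2.41 ± 0.30 SE, adjusted p = 1.89e-06). Sec14l3, a lipid-binding protein, had medians of 0.503 FPKM under Gly and 9.65 under saline in knockout, beside 4.38 in library 4 and 3.47 in saline wild type (log2 change -2.59 ± 0.26 SE, adjusted p = 1.28e-07). Cyp2a4, a steroid hydroxylase with near-identical relatives, had a Gly knockout median of 27.5 FPKM and a saline knockout median of 103, with library 4 at 296 and the saline wild-type median at 308 (log2 change -2.10 ± 0.54 SE, adjusted p = 0.00517). For Cyp2a4 Gly knockout library 1 held 173 FPKM, apart from the rest of its group, and library 4 held 296 against 75.2 to 113 in the other 5. With library 4 alone the calls of Mfsd2a, Sec14l3 and Slc9a8 held (adjusted p = 0.0106, 0.0238 and 0.0434) and those of Cyp2a4, Slc22a19 and Slc25a25 did not (adjusted p = 0.0656, 0.21 and 0.11).

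Genes that handle the injected compound showed no common direction. Of 14 tested genes of glyoxylate and oxalate handling, 2 rose and 2 fell (median -0.03). The sulfate and oxalate exchanger gene Slc26a1 had a median of 29.9 FPKM in Gly knockout against 17.3 in saline knockout, 30.04 in library 4 and 27.2 in saline wild type (log2 change 0.57 ± 0.16 SE, adjusted p = 0.00948). Prodh2, the hydroxyproline dehydrogenase that feeds glyoxylate formation, had medians of 69.2 FPKM under Gly and 44.7 under saline in knockout, beside 48.1 in library 4 and 29.5 in saline wild type (log2 change 0.43 ± 0.16 SE, adjusted p = 0.04997). The dicarboxylate and citrate transporter gene Slc13a2 had a Gly knockout median of 21.1 FPKM and a saline knockout median of 32.9, with library 4 at 28.4 and the saline wild-type median at 26.9 (log2 change -0.69 ± 0.18 SE, adjusted p = 0.00482), and its basolateral relative Slc13a3 had a median of 169.7 FPKM in Gly knockout against 217 in saline knockout, 213 in library 4 and 177 in saline wild type (log2 change -0.43 ± 0.11 SE, adjusted p = 0.00423). None of the 4 kept a call with library 4 alone, and the change of Slc26a1 against it was -0.053. Under median-ratio scaling none rose and 5 fell. The count of rises was 1 without saline knockout library 1, 2, 5 or 6 or Gly knockout library 3, 4, 5 or 6, and Prodh2 lost its call without saline knockout library 1, 2, 4, 5 or 6 or Gly knockout library 3, 4, 5 or 6 (adjusted p 0.0601 to 0.13).

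**Figure D3:**
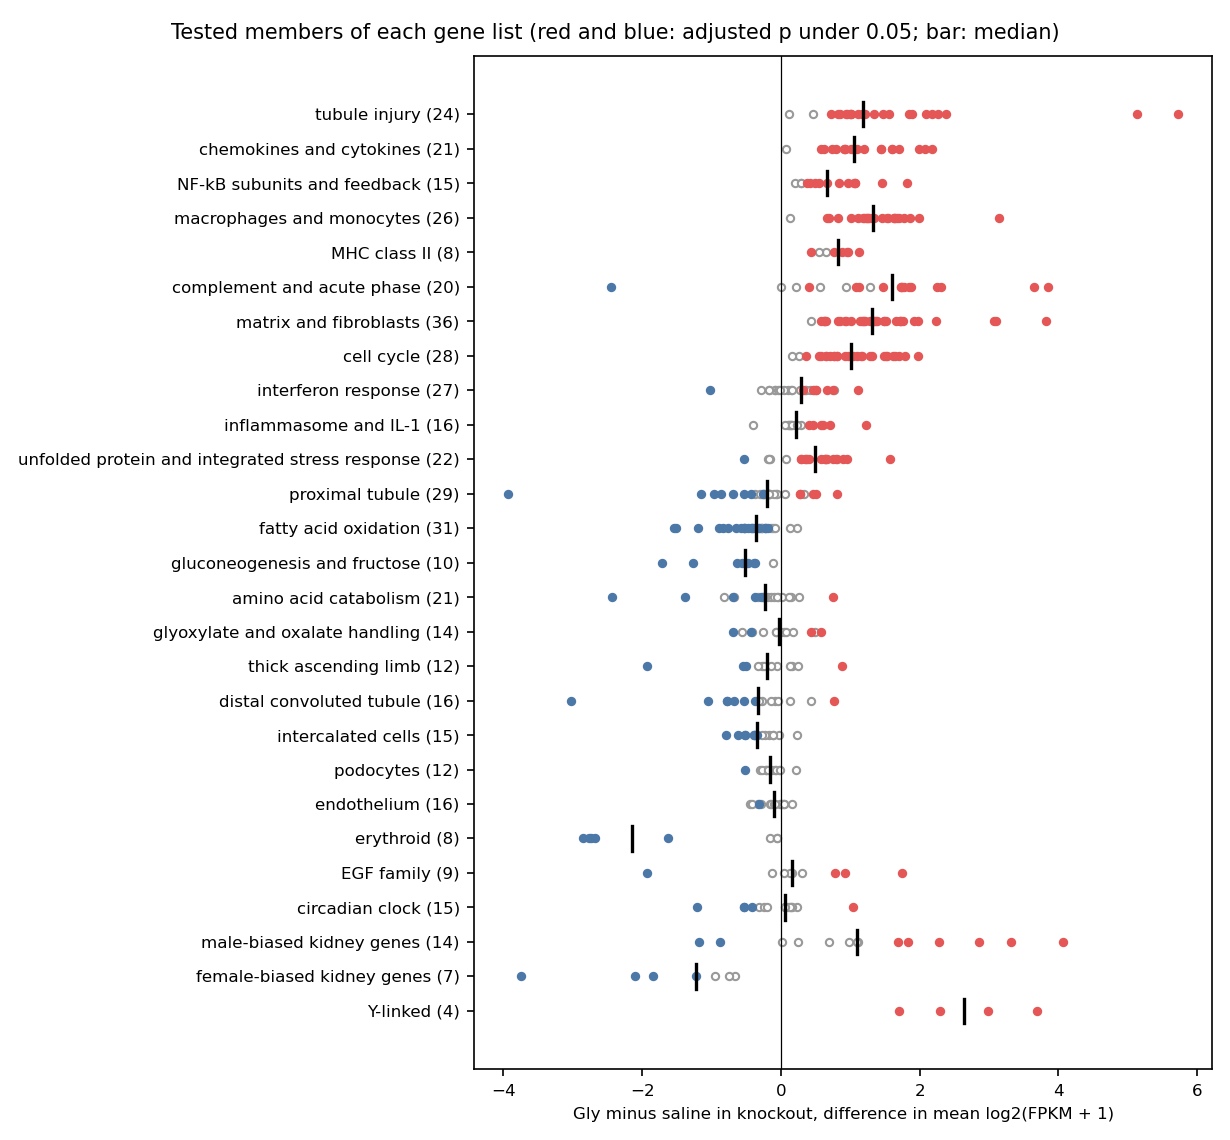
Each point is a tested member of a gene list, placed by the difference of Gly and saline knockout in mean log2(FPKM + 1). Red points are called higher, blue points called lower, open points are not called, black bars are list medians and the number tested stands in parentheses. Injury, chemokine, macrophage, matrix and cell cycle lists lie to the right of 0, and most members of the metabolic lists to the left.

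Markers of the distal nephron included single large changes and lists of which many members fell against saline knockout. In the distal convoluted tubule list 7 of 16 members fell, against 5.72% of all features, and 1 rose (median -0.33). Pvalb, the calcium-binding protein parvalbumin of the early distal convoluted tubule, ran from 0.581 to 2.95 FPKM (median 1.32) in Gly knockout and from 11.4 to 29.7 (median 17.5) in saline knockout. Library 4 (11.4 FPKM) and saline wild type (9.38 to 13.3) lay below the other 5 saline knockout libraries but far above the Gly range (log2 change -3.02 ± 0.21 SE, adjusted p = 5.02e-10). Trpv6, an epithelial calcium channel, was the member that rose, with medians of 1.38 FPKM under Gly and 0.419 under saline in knockout, beside 0.262 in library 4 and 0.332 in saline wild type (log2 change 0.76 ± 0.11 SE, adjusted p = 7.98e-06), above every saline library. Against saline wild type 3 members of the list were higher and 3 lower (median -0.10), and the median against library 4 was -0.12.

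In the thick ascending limb list 3 of 12 fell, Egf among them, against 5.72% of all features, and 1 rose (median -0.20). Cldn19, the tight junction claudin of magnesium and calcium uptake, was the one that rose, with a Gly knockout median of 18.2 FPKM and a saline knockout median of 9.65, with library 4 at 6.45 and the saline wild-type median at 6.56 (log2 change 0.88 ± 0.13 SE, adjusted p = 1.04e-05), above both saline groups in every library. The count of falls was 1 without saline knockout library 2 or Gly knockout library 6 and 5 without saline knockout library 4 or Gly knockout library 2 or 4, and that of rises 2 without Gly knockout library 1. Against saline wild type 3 members of the list were higher and 1 lower (median 0.12), and the median against library 4 was 0.26. No principal cell marker of 12 was called (median -0.08). Intercalated cell markers fell for 8 of 15, against 5.72% of all features (median -0.35). The ammonium transporter gene Rhbg had a median of 13.5 FPKM in Gly knockout against 21.6 in saline knockout, 13.1 in library 4 and 14.4 in saline wild type (log2 change -0.61 ± 0.14 SE, adjusted p = 0.0015). Library 4 and saline wild type lay at the Gly level, and the list as a whole was called lower for 1 member and higher for 1 against saline wild type, and for none with library 4 alone (median 0.09). The count was 4 without Gly knockout library 6 and 5 without saline knockout library 1, 2, 3 or 5 or Gly knockout library 1.

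Podocyte and endothelial markers were seldom called lower, near the 5.72% of all features, and none was called higher. Nphs1, encoding nephrin of the slit diaphragm, was the 1 podocyte gene of 12 that fell, with medians of 5.05 FPKM under Gly and 7.51 under saline in knockout, beside 5.44 in library 4 and 4.62 in saline wild type (log2 change -0.52 ± 0.15 SE, adjusted p = 0.0104). Emcn, an endothelial sialomucin, was the 1 endothelial gene of 16 that fell, with a Gly knockout median of 18.8 FPKM and a saline knockout median of 27.96, with library 4 at 19.5 and the saline wild-type median at 15.9 (log2 change -0.32 ± 0.11 SE, adjusted p = 0.0345). Emcn lost its call without saline knockout library 1, 2, 5 or 6 or Gly knockout library 1, 2, 5 or 6 (adjusted p 0.0581 to 0.0847). The number of endothelial genes called lower was 0 without saline knockout library 1, 2, 5 or 6 or Gly knockout library 1, 2, 5 or 6 and 4 without saline knockout library 4 or Gly knockout library 3. Against library 4 the medians were 0.30 for podocytes and 0.30 for endothelium, opposite in sign to -0.16 and -0.10 against all 6 saline knockout libraries. Relative to saline wild type 3 podocyte genes (median 0.32) and 9 endothelial genes (median 0.35) were higher and none lower.

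**Figure D4:**
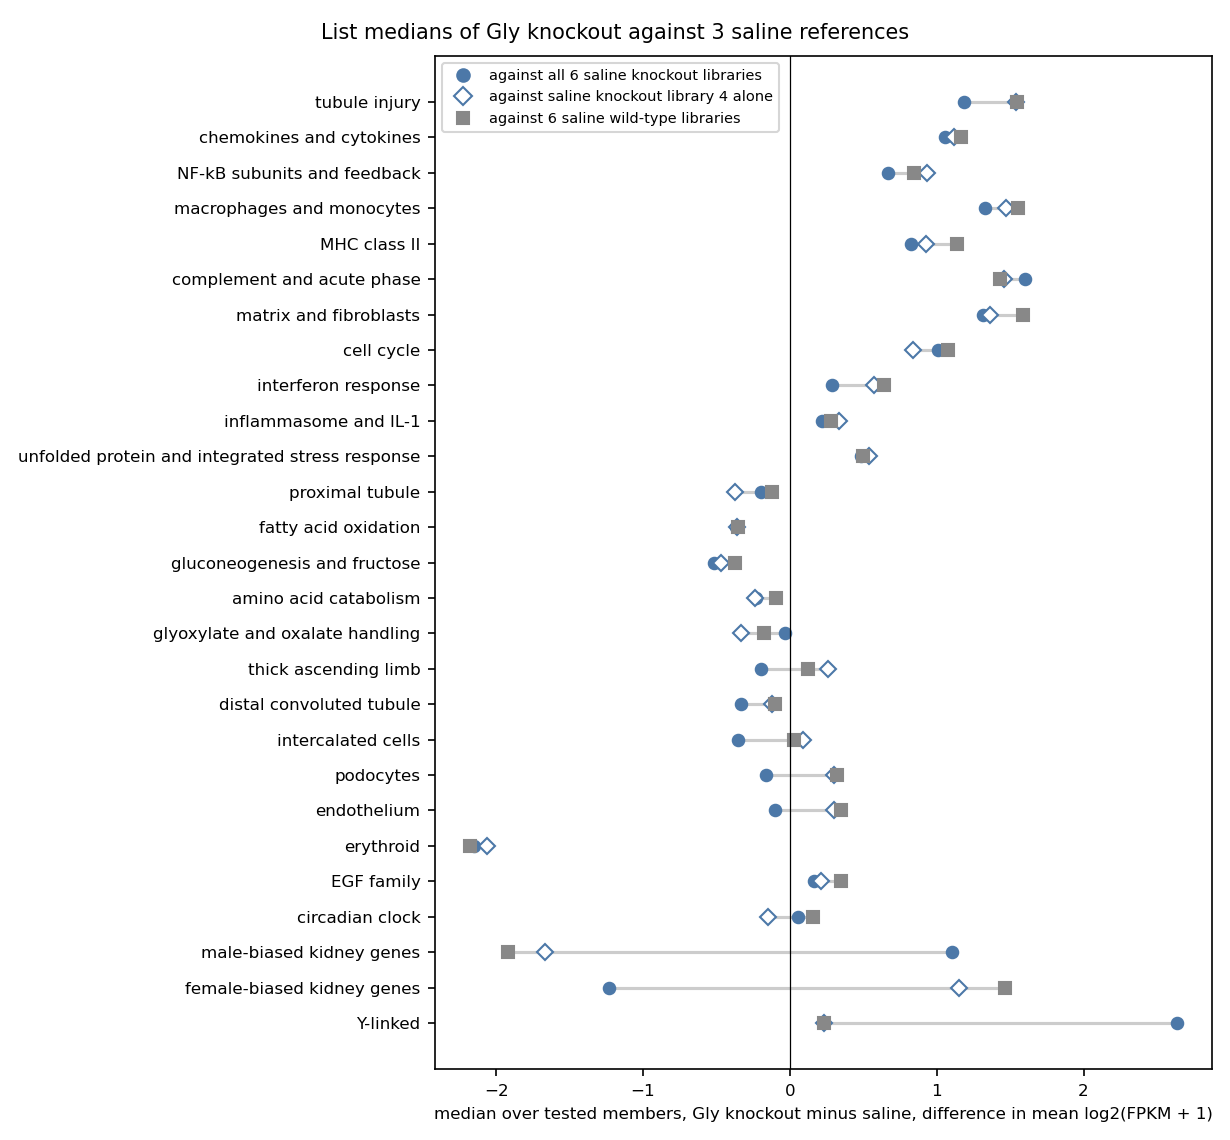
List medians of the Gly knockout difference in mean log2(FPKM + 1) against all 6 saline knockout libraries (blue circles), against saline knockout library 4 alone (open diamonds) and against the 6 saline wild-type libraries (grey squares). The 3 medians share their sign for the injury, immune, matrix, cell cycle, fatty acid and gluconeogenesis lists, and lie farthest apart for the sex-biased and Y-linked lists.

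Hemoglobin genes fell. Hbb-bs, a β-globin gene, ran from 22.1 to 199.7 FPKM (median 48.3) in Gly knockout and from 225 to 1277 (median 341) in saline knockout. Saline knockout library 2 held the highest value, library 4 held 366 FPKM and saline wild type ran from 123 to 865, so the Gly range overlapped wild type (log2 change -2.77 ± 0.60 SE, adjusted p = 0.00115). The copies Hba-a1 (48.5 against 295 FPKM, 321 in library 4 and 490.4 in saline wild type; log2 change -2.68 ± 0.59 SE, adjusted p = 0.00141), Hba-a2 (39.4 against 274 FPKM, 299 in library 4 and 472 in saline wild type; log2 change -2.74 ± 0.62 SE, adjusted p = 0.00171) and Hbb-bt (17.7 against 137 FPKM, 141 in library 4 and 241 in saline wild type; log2 change -2.86 ± 0.62 SE, adjusted p = 0.00111) share reads and are not independent. The erythroid list fell for 5 of 8 (median -2.15), and none was called with library 4 alone, where the median was about as low (-2.06). Hemoglobin transcripts in whole kidney may come from blood left in the tissue. Its amount was not measured here, and its part in these falls was not tested.

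Of 15 clock genes 1 rose and 4 fell (median 0.06), beside 23.7% and 5.72% of all features. Against saline wild type 3 were higher and 3 lower (median 0.16), and the median against library 4 was -0.15. Nr1d1, the repressor REV-ERBα, had a median of 24.1 FPKM in Gly knockout against 10.1 in saline knockout, 10.3 in library 4 and 8.35 in saline wild type (log2 change 1.04 ± 0.18 SE, adjusted p = 9.69e-05). Cry1, a repressor of the other arm, ran from 1.38 to 2.28 FPKM (median 2.08) in Gly knockout and from 4.11 to 7.56 (median 6.53) in saline knockout. Library 4 held the lowest saline knockout value of Cry1 (4.11 FPKM) and saline wild type 3.69 to 5.86, above all Gly libraries (log2 change -1.21 ± 0.13 SE, adjusted p = 1.75e-07). The labels give no hour of collection. The count of falls was 2 without saline knockout library 1. In the amino acid catabolism list 5 of 21 fell and 1, Cbs, rose against saline knockout (median -0.23), beside 5.72% and 23.7% of all features. Relative to saline wild type 5 were lower and 1 higher (median -0.09), and the median against library 4 was -0.23. Falls numbered 3 without Gly knockout library 6 and 8 without saline knockout library 4. Rises numbered 2 without saline knockout library 4 or Gly knockout library 3. The gene that rose, Cbs, encoding cystathionine β-synthase, had medians of 44.3 FPKM under Gly and 22.6 under saline in knockout, beside 64.2 in library 4 and 69.3 in saline wild type (log2 change 0.75 ± 0.20 SE, adjusted p = 0.00576), and its change against library 4 had the opposite sign (-0.48).

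**Figure D5:**
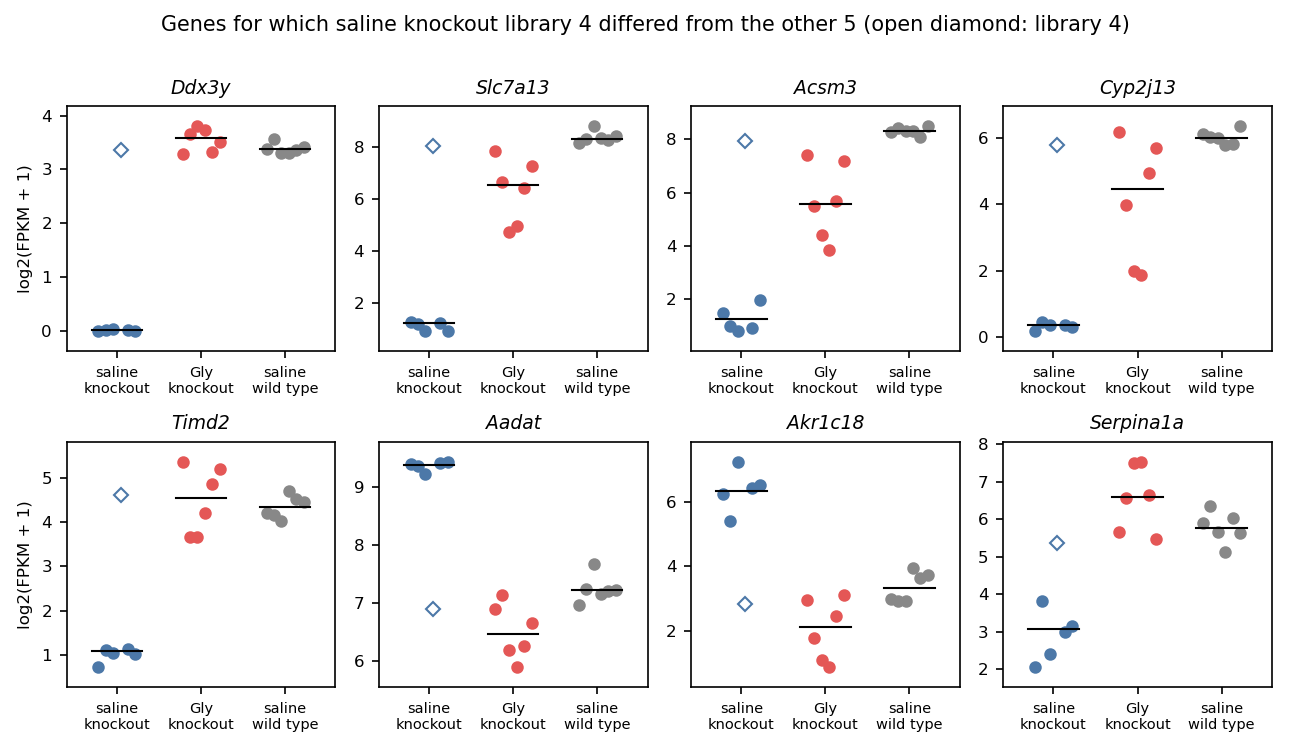
Expression of 8 genes on the log2(FPKM + 1) scale for which library 4, the open diamond, stands apart from the other 5 saline knockout libraries. Points are libraries and black bars are medians. Library 4 lies within or near the range of saline wild type in each panel.

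Genes whose change depended on the choice of saline library were led by sex-biased genes of the kidney. Slc7a13, the aspartate and glutamate transporter AGT1 of the male proximal tubule, ran from 25.5 to 227 FPKM (median 93.2) in Gly knockout and from 0.869 to 263 (median 1.29) in saline knockout. Library 4 held 263 FPKM and the other 5 saline knockout libraries 0.869 to 1.395, with saline wild type at 288 to 444. The called rise (log2 change 4.07 ± 0.82 SE, adjusted p = 0.00056) was thus a difference from those 5 libraries, and against library 4 the change was -1.73 and against saline wild type -2.07. Acsm3, a medium-chain acyl-CoA synthetase, had a Gly knockout median of 46.9 FPKM and a saline knockout median of 1.398, with library 4 at 243 and the saline wild-type median at 322 (log2 change 3.31 ± 0.82 SE, adjusted p = 0.00356). Against library 4 it changed by -2.27. Cyp2j13, an epoxygenase, had a median of 22.1 FPKM in Gly knockout against 0.294 in saline knockout, 54.5 in library 4 and 63.3 in saline wild type (log2 change 2.86 ± 0.77 SE, adjusted p = 0.00644) and -1.69 against library 4. Ugt2b37, another glucuronosyltransferase, had medians of 18.02 FPKM under Gly and 0.604 under saline in knockout, beside 51.6 in library 4 and 23.1 in saline wild type (log2 change 2.61 ± 0.66 SE, adjusted p = 0.00424) and -1.63 against library 4.

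For Slc7a13, Acsm3 and Cyp2j13 library 4 was near the level of saline wild type, and for Ugt2b37 it was well above the wild-type median. For all 4 genes the other 5 saline knockout libraries were far below saline wild type. Timd2, a ferritin receptor, had a Gly knockout median of 22.8 FPKM and a saline knockout median of 1.12, with library 4 at 23.5 and the saline wild-type median at 19.2 (log2 change 2.87 ± 0.45 SE, adjusted p = 3.8e-05), and hardly differed from library 4 (-0.12). Cyp4a12b, a fatty acid hydroxylase under androgen control, had a median of 13.6 FPKM in Gly knockout against 1.62 in saline knockout, 10.8 in library 4 and 14.4 in saline wild type (log2 change 2.27 ± 0.38 SE, adjusted p = 6.42e-05). Serpina1a, an α1-antitrypsin gene with near-identical copies, had medians of 95.5 FPKM under Gly and 7.37 under saline in knockout, beside 40.3 in library 4 and 53.9 in saline wild type (log2 change 3.26 ± 0.41 SE, adjusted p = 2.04e-06). It was above every saline knockout library including library 4, by 1.19, but with library 4 alone the call was lost (adjusted p = 0.21). Eif2s3y, a Y-linked translation factor, had a Gly knockout median of 21.002 FPKM and a saline knockout median of 0, with library 4 at 16.2 and the saline wild-type median at 16.4 (log2 change 3.69 ± 0.45 SE, adjusted p = 1.61e-06), and all 4 tested Y-linked genes were called higher against saline knockout and none against saline wild type.

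The reverse held for genes high in the 5 libraries. Akr1c18, the 20α-hydroxysteroid dehydrogenase that inactivates progesterone, ran from 0.837 to 7.59 FPKM (median 3.43) in Gly knockout and from 6.06 to 151 (median 80.8) in saline knockout. Library 4 held 6.06 FPKM and saline wild type 6.52 to 14.4, which both overlap the Gly range (log2 change -3.75 ± 0.52 SE, adjusted p = 7e-06). Aadat, the aminoadipate aminotransferase of lysine and kynurenine breakdown, ran from 58.9 to 139.6 FPKM (median 88.1) in Gly knockout and from 119 to 683 (median 661) in saline knockout. Library 4 held 119 FPKM and saline wild type 124 to 203, and the change against library 4 was -0.39 (log2 change -2.43 ± 0.30 SE, adjusted p = 1.89e-06 against all 6). Abcc3, an efflux pump of conjugates, had a median of 2.51 FPKM in Gly knockout against 17.2 in saline knockout, 0.476 in library 4 and 0.472 in saline wild type (log2 change -1.85 ± 0.45 SE, adjusted p = 0.00317), and against library 4 its change was 1.29.

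A pair of genes of the male-biased list fell. Kap, the androgen-regulated kidney protein and among the most abundant transcripts of the male proximal tubule, ran from 951 to 13061 FPKM (median 4599) in Gly knockout and from 6878 to 20308 (median 8169) in saline knockout. Library 4 held 20308 FPKM, saline wild type 17483 to 22059 and the other 5 saline knockout libraries 6878 to 9172 (log2 change -1.19 ± 0.45 SE, adjusted p = 0.0475). Its call was lost without saline knockout library 1, 2, 3, 4, 5 or 6 or Gly knockout library 2, 3, 4 or 5 (adjusted p 0.0506 to 0.14). Nudt19, a coenzyme A diphosphatase, had medians of 153 FPKM under Gly and 265 under saline in knockout, beside 439 in library 4 and 361 in saline wild type (log2 change -0.88 ± 0.21 SE, adjusted p = 0.00309). Over the male-biased list 6 of 14 rose and 2 fell against saline knockout (median 1.10), whereas against saline wild type none was higher and 11 were lower (median -1.92). Against library 4 alone the median was -1.67, on the side of the wild-type reference. The count of rises was 11 without saline knockout library 4, and that of falls 1 without saline knockout library 1, 2, 3, 4, 5 or 6 or Gly knockout library 2, 3, 4 or 5. Of female-biased genes 4 of 7 fell against saline knockout (median -1.23), and against saline wild type 5 were higher and 2 lower (median 1.47). The median against library 4 was 1.15. This list includes Cyp2a4, which was higher in library 4 and, by median, in saline wild type than in the other 5 saline knockout libraries, as given above.

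The response was also set against that of wild type, by the interaction term of the same model. It was lower in knockout for 2639 features (20.3%) and higher for 818 (6.28%). The median interaction over all features was -0.16, as the common shift was 0.12 in knockout and 0.26 in wild type. The counts and list medians below include that shift. Under median-ratio scaling the interaction was called for 2823 features in place of 3457. Among the lists, the response was lower in knockout for 23 of 26 macrophage genes, 16 of 21 chemokine and cytokine genes, 21 of 27 interferon genes and 17 of 24 injury genes. For inflammasome genes it was lower for 4 of 16 and higher for 1, near the shares of all features. It was higher in knockout for 16 of 31 fatty acid oxidation genes and 8 of 10 gluconeogenesis genes. For both, higher meant a smaller fall by the list medians. These were -0.36 in knockout and -0.87 in wild type for fatty acid oxidation, and -0.52 and -1.28 for gluconeogenesis. With library 4 alone the saline knockout arm has 1 library, so only sizes are given here. The median differences of response kept their sign. They were -0.97 for macrophage genes (-1.18 with all 6 saline knockout libraries) and -0.96 for chemokine and cytokine genes (-1.10). Interferon genes had -0.68 (-0.95) and injury genes -0.81 (-1.08). Fatty acid oxidation had 0.58 (0.45) and gluconeogenesis 0.79 (0.84).

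Csf1, Ier5, Pdgfb, Acot12 and Hspb1 were among the 6 genes with the smallest interaction p. Csf1 rose by 1.45 in knockout and 3.61 in wild type (log2; interaction -2.16 ± 0.20 SE, adjusted p = 8.21e-07). Ier5, an immediate early gene, had a Gly knockout median of 4.35 FPKM and a saline knockout median of 2.96, with library 4 at 2.21 and the saline wild-type median at 1.84 (log2 change 0.49 ± 0.11 SE, adjusted p = 0.00105), against a log2 change of 2.09 in wild type. Pdgfb, a mitogen of pericytes and fibroblasts, had a median of 10.8 FPKM in Gly knockout against 4.63 in saline knockout, 4.12 in library 4 and 3.85 in saline wild type (log2 change 1.08 ± 0.11 SE, adjusted p = 1.58e-07), against 2.54 in wild type. All 3 rose in both genotypes and by less in knockout. Hspb1, a small heat shock protein, had medians of 31.1 FPKM under Gly and 14.4 under saline in knockout, beside 13.1 in library 4 and 6.02 in saline wild type (log2 change 1.17 ± 0.18 SE, adjusted p = 3.61e-05), against 3.52 in wild type. Its saline level was higher in knockout than in wild type, library 4 included. Acot12, an acetyl-CoA hydrolase, had a median of 37.3 FPKM in Gly knockout against 41.5 in saline knockout, 63.1 in library 4 and 76.2 in saline wild type (log2 change -0.21 ± 0.13 SE, adjusted p = 0.24), a knockout difference that did not pass the test, against -1.88 in wild type.

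The 6 Gly knockout libraries differed among themselves in the size of the response. Library 6 of this group had the highest mean log2(FPKM + 1) over the injury list (5.63), the macrophage list (3.75), the matrix list (4.24), the chemokine list (3.12) and the cell cycle list (2.95). Gly knockout library 2 had the lowest over the injury list (4.85) and the macrophage list (2.72). Without Gly knockout library 6 the count of called features was 3080, and over all 12 knockout libraries left out in turn it lay between that and 3708. Markers of tissue that could be taken along with a kidney did not separate the groups: no adipocyte gene of 5 tested was called (summed FPKM 35.9 to 209 in Gly and 31.2 to 473 in saline knockout), and adrenal cortex genes, all below the limit for testing, summed to 1.04 to 1.91 and 1.01 to 1.602 FPKM.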

How the data were processed

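RNA of whole kidney was sequenced after Trizol extraction and TruSeq library preparation from 1 µg of total RNA, per the labels' protocols. The FPKM values were computed and deposited by the authors as 1 table with a column per library. Bowtie 0.12.2 and the builds mm8 and mm9 are named in the submitters' processing notes, without a role. The FPKM program, its annotation and its strand setting were not given in the sources used here. No column was of unknown sample and no 2 libraries were identical (pair correlations 0.945 to 0.996). Low values showed no steps of whole reads (at most 2.55% of low features shared 1 ratio), so the depth is unknown.

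Groups came from the sample titles. limma 3.58.1 with an intensity trend (R 4.3.3) was fitted to log2(FPKM + 1) of all 24 libraries, a mean per group and 20 residual degrees of freedom, over the 13020 features that reached 1 FPKM in 6 or more libraries. Benjamini-Hochberg adjustment ran over all of them, two-sided. The fit was tested on simulated data. Single measures used exact permutation tests (scipy 1.17.1). Antisense, overlapping and near-identical genes are uncertain.

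The genes named are Nlrp3 and Ddx3y, the 12 largest rises and 12 largest falls of called genes averaging at least 5 FPKM that changed the same way and by at least 0.5 times as much against saline knockout library 4 and saline wild type, the 10 largest changes that did not against library 4, the 6 smallest p of the interaction (1 of which is not reported here), and, per list, as many as 4 members of smallest p, with those moving against it. The hemoglobin genes counted as 1. Fga and Fgb were added later. The 40 gene lists (630 distinct genes) and these choices were made with earlier results of these data known. Of 641 list entries 636 matched a row, 1 of them by a synonym. Alternatives were another pseudocount, filter and scaling, array weights, knockout libraries only, a replicate block and leaving out libraries.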

Additional observations from a re-analysis of the deposited data

Results flagged for a closer look

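Values far from the rest of their group were sought in the 2 knockout groups: a library counted when its gap to the nearest of the other 5 took more than 0.625 of the range of the group. Of 198 groups of 6 examined, 27 held such a library. Chance flags about 1 in 20, but some genes were named because their change did not hold against saline knockout library 4. The count of 27 follows in part from that choice, so it cannot be judged against the chance rate. The same holds for the share of library 4. Saline knockout library 4 gave 17 of the 27. It stood above the other 5 libraries, in FPKM, for Acot12 (63.1), Acsm3 (243), Cbs (64.2), Cyp2a4 (296), Cyp2j13 (54.5), Cyp4a12b (10.8), Ddx3y (9.33), Eif2s3y (16.2), Hbegf (6.64), Kap (20308), Serpina1a (40.3), Slc7a13 (263), Timd2 (23.5) and Ugt2b37 (51.6). It stood below them for Aadat (119), Gbp3 (1.999) and Spp1 (461). Many of these genes are sex-biased in the kidney or Y-linked.

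Saline knockout library 2 gave 6 such values, with the hemoglobin genes Hba-a1 (1159), Hba-a2 (1090.2), Hbb-bs (1277) and Hbb-bt (560.1) and with Nr1d1 (20.8) and Slc13a1 (235), all above the rest. Saline knockout library 3 was high for Prodh2 (63.2). Single values were also high in Gly knockout libraries 1, 3 and 6, for Cyp2a4 (173), Trpv6 (1.72) and C1qc (32.8) in that order.

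The responses of the 2 genotypes to Gly differed by the interaction test for 49 of 94 named genes. Over all 13020 features the response was lower in knockout for 20.3% and higher for 6.28%. Some genes were named for their small interaction p and others for large changes, so the count follows in part from the choice. Values are log2 units of knockout minus wild-type response. A rise in both genotypes was smaller in knockout for Aoc1 -1.69, Atf3 -1.61, Bcl3 -0.76, C1qc -1.56, Cfi -0.76, Cldn19 -0.48, Col1a1 -1.02, Col3a1 -1.18, Csf1 -2.16, Cxcl1 -1.67, Cxcl10 -1.53, Cxcl2 -1.45, H2-DMb2 -1.08, Havcr1 -2.11, Hspb1 -2.35, Icam1 -0.77, Ier5 -1.60, Ifit3 -1.04, Irf1 -1.13, Lgals3 -0.76, Lyz2 -1.29, Nrg1 -0.69, Pdgfb -1.46, Serpina10 -0.97, Spp1 -1.92, Tgfbi -0.90 and Timp1 -1.49. The change was negative in both genotypes and smaller in knockout for Acot12 1.67, Cpt2 0.86, Egf 1.53, Fbp1 0.78, G6pc 1.93, Pck1 1.41, Shmt2 0.65 and Slc13a3 0.49. The remaining differences were Abcc3 -2.81, Acsm3 5.73, Aqp1 0.66, Cbs 1.64, Cyp2j13 3.15, Cyp4a12b 1.52, Ddx3y 3.12, Eif2s3y 3.23, Emcn -0.58, Gbp3 -2.73, Hnf4a 0.43, Serpina1a 3.67, Slc26a1 0.98 and Slc7a13 5.95, among genes whose change had opposite signs in the 2 genotypes or, for Cyp4a12b and Eif2s3y, was positive in both and larger in knockout. The saline knockout group enters each of these values, with its 5 libraries that lack Ddx3y. With library 4 alone, 44 of the 49 differences kept their sign and 34 of those were at least 0.5 times as large, while 10 features of the whole table were called in that fit, which has 1 library in that arm.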

How the results depend on the processing

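Counts of called features moved most when the 5 saline knockout libraries lacking Ddx3y were left out: 741 in all, 601 higher and 140 lower, against 3837, 3092 and 745, and 10 in place of 3457 for the interaction. The remaining library has no spread of its own in that fit, which has fewer samples. Some of the named genes were chosen because their change held against this library and others because it did not. How many named genes kept or turned their change there follows in part from that choice. Of 94 named genes tested, 51 kept their direction and their side of the threshold there. The calls of 33 were lost: Aadat, Akr1c18, Aqp1, Casp4, Cyp2a4, Cyp4a12b, Ddx3y, Egf, Eif2s3y, Fga, Fgb, H2-DMb2, Hba-a1, Hba-a2, Hbb-bs, Hbb-bt, Hbegf, Hnf4a, Irf1, Kap, Nphs1, Prodh2, Rhbg, Rrm2, Serpina1a, Slc13a2, Slc13a3, Slc22a13, Slc22a19, Slc22a7, Slc25a25, Slc2a2 and Slc7a7. The sign turned for 10, with log2 values of Abcc3 1.29, Acsm3 -2.27, Cbs -0.48, Cyp2j13 -1.69, Emcn 0.076, Gbp3 0.92, Slc26a1 -0.053, Slc7a13 -1.73, Timd2 -0.12 and Ugt2b37 -1.63. Array weights gave 6058 called features, 4751 higher and 1307 lower, and 6896 for the interaction. Higher and lower features numbered 1608 and 1549 under median-ratio scaling and 1699 and 1892 under quantile normalization. A pseudocount of 0.1 gave 833 features past 1 log2 unit, against 437. The cause of these shifts was not tested.

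With each library left out in turn, called features lay between 3080 and 3708, 2477 and 3085 higher and 593 and 780 lower, and those past 1 log2 unit between 378 and 465. The difference from saline wild type lay between 5236 and 6179 features (5943 with all libraries) and the interaction between 2918 and 4279. The Nlrp3 difference was 0.0132 to 0.0495 FPKM, of which the highest, without saline knockout library 6, passed its exact permutation test (p = 0.026). The mitochondrial difference was -7.15 to -6.31 percentage points, the ribosomal one 1.28 to 1.501 and that of the FPKM sum -28902 to -19890.4.

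Replicate numbers did not pair the samples: deviations of same-numbered Gly and saline knockout libraries correlated between -0.367 and 0.0924. With the replicate block 3698 features were called, 2994 higher and 704 lower, 437 past 1 log2 unit, 5830 against saline wild type and 3266 for the interaction. None of the 6 saline knockout libraries correlated best with the Gly library of its own number. Depth is unknown, so weakly expressed genes carry no counting interval.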

Other observations

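Lists that belong to no comparison above had these values. Of 9 genes of phosphate, vitamin D and klotho handling, 1 was higher and 2 lower in Gly than in saline knockout (median log2 change 0.076), and a single library left out changed these counts to between 1 and 2. Only 1 of 8 skeletal muscle genes and 1 of 10 pancreas genes passed the filter, and neither was called. The X inactivation list was not analysed here. The second principal component of the 12 knockout libraries (18.9% of the variance) placed saline knockout library 4 (-33.9) and Gly knockout library 1 (-27.3) lowest. Gly knockout library 1 also had the highest Cyp2a4 value of its group (173 FPKM), a gene that library 4 expressed at 296 FPKM.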
